A study of Harpegnathos saltator with 18 samples.

Results

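The genes described here are those of the ant Harpegnathos saltator that were abundant in both dissected parts of the worker brain and low in retina, fat body and ovary. They were chosen on measured values. A gene model with an HSALG identifier was taken when its mean was 20 RPKM or more (reads scaled by gene model length and library total) in each of non-visual brain and optic lobe, these means were less than 3-fold apart, and the lower of them was at least 8 times the highest mean of retina, fat body and ovary. Of 20317 HSALG rows, 2129 reached 20 RPKM in both brain parts, 2089 of these had brain means less than 3-fold apart, and 113 met the whole rule, which is 5.31% of the 2129. The antenna did not enter the choice. Levels in brain, retina, fat body and ovary are therefore a description, and the antenna is the tissue that the choice left free.

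Polyadenylated RNA was sequenced from 6 tissues with 3 libraries each. The groups were non-visual brain, optic lobe, antenna, retina and fat body of workers, and ovary of gamergates, which are workers that have mated and lay eggs. The labels name no genetic change, treatment or age, and all ants were kept in a climate-controlled facility and fed live crickets. Caste and ovary cannot be told apart. The labels do not say whether replicates came from separate animals or pools, so p-values measure the spread between libraries, which may be technical.

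As background, the optic lobe is the part of an insect brain that takes in signals from the eye. The rest of the brain holds the mushroom bodies, which serve learning, and the antennal lobes, which receive the axons of olfactory neurons whose cell bodies sit in the antenna. Fat body and ovary are organs of metabolism and of egg production. The deposited identifiers are not paired with gene names, and 0 of 20755 were found among the 14329 genes of the RefSeq annotation given, so members are given by identifier without function, sequence or position. For the same reason the tissues could not be checked against named marker genes.

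The totals behind the RPKM ran from 11 to 26.5 M (mega) reads in the 6 brain libraries, from 2.37 to 4.73 M in antenna and from 8.2 to 30.1 M in retina, fat body and ovary. The antenna was the shallowest tissue, and 3 reads in a model of 1000 bases were worth 0.634 to 1.27 RPKM there. The 112 members with recovered reads drew 10856, 5545 and 8190 reads in antenna replicates 1, 2 and 3, with medians of 45.5, 23 and 40.5 reads per gene. Antenna replicate 3 stood apart from the other antenna libraries. Its median over 32 retina-restricted rows (at least 100 RPKM in retina and 30 times the mean of each other tissue except antenna) was 17.2% of the retina level, against 0.458% in antenna replicate 1 and 2.79% in antenna replicate 2. Over 14 fat body-restricted rows the medians were 6.64% in antenna replicate 3, 0% in antenna replicate 1 and 0.849% in antenna replicate 2, and over 56 ovary-restricted rows they were 0, 0 and 1.86% in the same order. In the brain, library medians of the retina-restricted rows were 0.263 to 0.997% for non-visual brain and 0.38 to 0.529% for optic lobe. The choice of these rows kept their brain means low, so the brain values are no check on the brain libraries. Only antenna was left free.

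**Figure D1:**
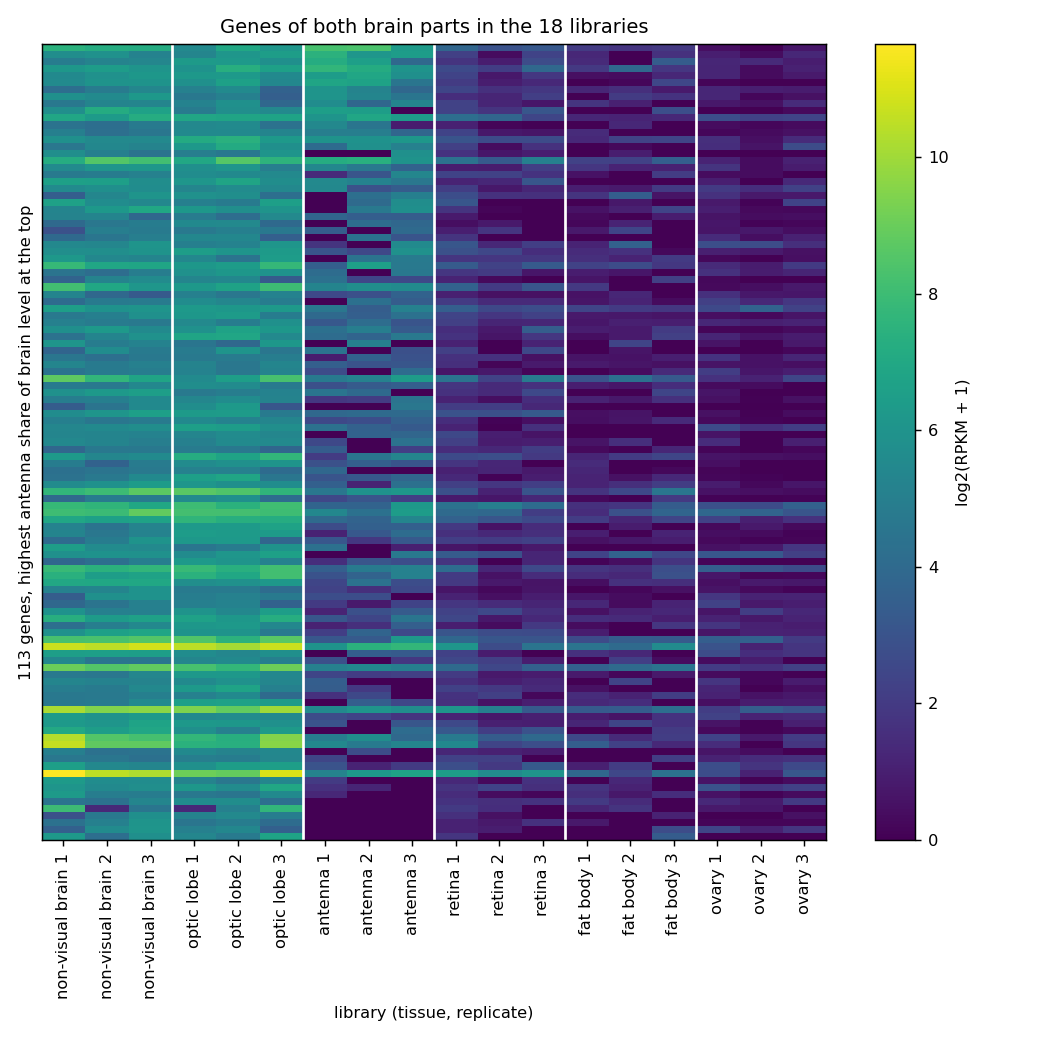
Level of the 113 genes (rows, highest antenna share of the brain level at the top) in the 18 libraries (columns), as log2(RPKM + 1). The 6 brain columns are at 10 RPKM or more in 106 of the genes, the 9 columns of retina, fat body and ovary are lower in nearly every row (111 genes have their lowest brain library above all 9), and the 3 antenna columns run from high at the top to low at the bottom.

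In the brain the members spanned a wide range of abundance. Their mean over the 6 brain libraries ran from 21.2 to 1542 RPKM with a median of 52.7 RPKM, and 21 members were at 100 RPKM or more. Together the 113 genes made up 4.28 to 5.1% of all RPKM in the non-visual brain libraries and 4.03 to 4.69% in the optic lobe libraries. They took 0.845 to 1.2% in antenna, 0.0868 to 0.213% in retina, 0.0497 to 0.0779% in fat body and 0.0317 to 0.0513% in ovary. Abundance was uneven among members, and the 5 most abundant held 39.2% of the members' summed brain RPKM.

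HSALG004673.2 was the most abundant member. It had 1715, 1428 and 1837 RPKM in the non-visual brain libraries and 1466, 1102 and 1701 RPKM in the optic lobe libraries. Its values were 62.1, 175 and 209 RPKM in antenna, 69.9, 5.58 and 21.7 RPKM in retina, 21.5, 15.4 and 47.7 RPKM in fat body, and 6.94, 1.2 and 2.53 RPKM in ovary. Every brain library stood above every other library, and antenna replicate 1 lay below retina replicate 1. HSALG001172.1, the next in abundance, had 3229.8, 1430.0 and 1176 RPKM in non-visual brain and 544, 473 and 2025 RPKM in optic lobe. Non-visual brain replicate 1 and optic lobe replicate 3 were its highest libraries, and the brain parts overlapped.

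At the other end, HSALG003765.2 had a non-visual brain mean of 20.7 ± 6.29 RPKM and an optic lobe mean of 21.7 ± 7.61 RPKM (SD, n = 3 each). HSALG003503.2 had means of 21.4 ± 13.1 RPKM in non-visual brain and 26.9 ± 3.94 RPKM in optic lobe (SD, n = 3 each). The means of both genes lay close to the 20 RPKM minimum. HSALG003867.2 was the nearest member above that minimum, at 20.1 RPKM in its lower brain part, and HSALG010947.2 fell just outside at 19.72 RPKM.

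The coding length recovered from the RPKM steps ran from 117 to 5973 bases with a median of 948 bases in the 112 members that gave one. Among the other 2016 HSALG genes at 20 RPKM or more in both brain parts it was 843 bases (1675 genes with a length), and among all 15352 HSALG rows with a length 825 bases. HSALG023357.1 was the shortest member and HSALG000841.2 the longest. The longest stood at 22.7 ± 9.36 RPKM in non-visual brain and 25.8 ± 12.3 RPKM in optic lobe (SD, n = 3 each). The libraries were unstranded, so reads of a member and of a gene on the opposite strand cannot be told apart, and near-identical copies could not be looked for without sequence.

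By the choice of members the means of the brain parts lie within 3-fold, and more members were lower than higher in non-visual brain. Of the 113 genes, 44 had the higher mean in non-visual brain and 69 the lower, and the median ratio of non-visual brain to optic lobe was 0.877. In 62 members the means were less than 1.5-fold apart. A difference of 2-fold or more was seen in 20 members, 5 of them higher and 15 lower in non-visual brain. The split depended on how libraries were scaled, with 53 higher and 60 lower after trimmed-mean factors, 39 higher and 74 lower once every library was set to an equal RPKM sum, and 36 higher and 77 lower after quantile normalization. The 3 libraries of non-visual brain stood wholly above those of optic lobe in 9 members (7.96%), against 4.36% of the 12996 rows that passed the filter on low values, and wholly below them in 23 (20.4%), against 13% of those rows. The choice used the means of these libraries, so nothing is read from these shares.

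HSALG001149.2 had the highest ratio of non-visual brain to optic lobe, 2.61. It had 57.2, 46.3 and 74.2 RPKM in non-visual brain and 24.4, 32.9 and 10.6 RPKM in optic lobe. These libraries did not overlap. HSALG026526.1 followed at 2.51, with 59.1, 77.5 and 90.7 RPKM in non-visual brain and 25.5, 30.2 and 34.8 RPKM in optic lobe, again without overlap. The lowest ratio, 0.344, belonged to HSALG028395.1, whose libraries held 24.1, 27.1 and 44.5 RPKM in non-visual brain and 93.2, 102 and 82.5 RPKM in optic lobe. Every non-visual brain library was below every optic lobe library. HSALG010777.2 had a ratio of 0.351, with 13.8, 17.9 and 29.6 RPKM in non-visual brain and 75.6, 64.9 and 34.1 RPKM in optic lobe, also without overlap. HSALG028395.1 was the member nearest to the 3-fold bound, its means being 2.90-fold apart, and HSALG011773.2 fell outside with means 3.08-fold apart.

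**Figure D2:**
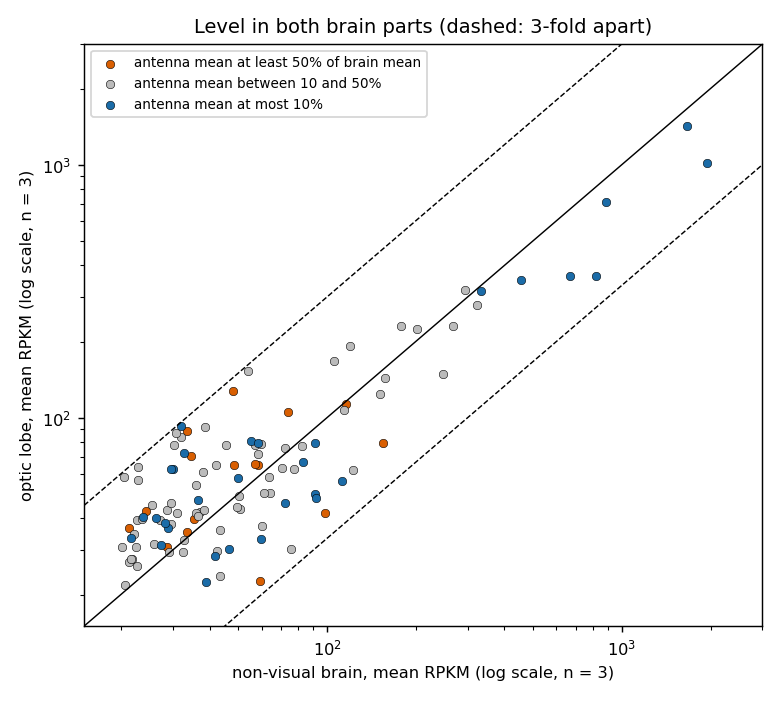
Mean RPKM in non-visual brain (x axis) and optic lobe (y axis), both on log scales, for each of the 113 genes, coloured by whether the antenna mean was at least 50%, between 10 and 50%, or at most 10% of the brain mean. The solid line marks equal means and the dashed lines the 3-fold bound of the rule. Genes at 50% or more in antenna (16) and at 10% or less (31) lie on both sides of the solid line.

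Members differed in how evenly they were expressed over the brain libraries. The coefficient of variation over the 6 libraries had a median of 41.8%. All 6 brain libraries were at 20 RPKM or more in 76 members and at 10 RPKM or more in 106. In 111 members the lowest brain library was above the highest of the 9 retina, fat body and ovary libraries, against 9.9% of the 12996 rows, a count that the choice of members largely fixes. HSALG000394.1 was the most even member (coefficient of variation 11.2%), with 38.4, 37.6 and 35.2 RPKM in non-visual brain and 38.5, 48.1 and 40.3 RPKM in optic lobe. HSALG014050.2, at 12.3%, had 46.3, 55.6 and 50.3 RPKM in non-visual brain and 39.2, 48.4 and 42.8 RPKM in optic lobe. The brain parts overlapped in HSALG014050.2, while in HSALG000394.1 the highest non-visual brain library lay just below the lowest optic lobe library.

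HSALG004702.1 was the most uneven member (coefficient of variation 130.3%). It had 249.7, 1.56 and 22.4 RPKM in non-visual brain and 1.51, 32.8 and 203 RPKM in optic lobe. Non-visual brain replicate 1 and optic lobe replicate 3 were far above the rest, and the lowest library of each brain part held 10 and 12 reads of the gene. HSALG003053.2, at 89.3%, had 1573, 443 and 441 RPKM in non-visual brain and 173, 161 and 757 RPKM in optic lobe. The same libraries, non-visual brain replicate 1 and optic lobe replicate 3, were its highest within each part.

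That pattern was shared by many members. The deviation of non-visual brain replicate 1 from the other non-visual brain libraries and that of optic lobe replicate 3 from the other optic lobe libraries, both as differences of log2(RPKM + 1), had a correlation of 0.783 across the 113 genes, which share their libraries and are not independent replicates. The same correlation was 0.627 over the 2129 HSALG rows at 20 RPKM or more in both brain parts and 0.356 over the 12996 rows tested. In 41 members both libraries were higher and in 52 both were lower, so that 82.3% moved the same way, against 73.2% of the 2129 rows and 65.2% of the 12996. These were the shallowest libraries of their brain parts, with 11.3 M reads in non-visual brain replicate 1 and 11 M in optic lobe replicate 3, and the part of depth in the pattern was not tested. Both libraries were picked after the values were seen. Their correlation was the highest of all pairs across the brain parts, and the other pairs ran from -0.67 to 0.548 over the members. Deviations cancel out within each brain part, so the other pairs are not an independent comparison.

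In 10 members (8.85%) both libraries were at least 2-fold higher, against 9.58% of the 2129 rows, and in 6 members (5.31%) both were at least 2-fold lower, against 3.62% of the 2129 rows. The 10 higher genes, chosen after their values were seen, took 44.3% of the members' RPKM in non-visual brain replicate 1, against 24.3 and 18.5% in non-visual brain replicates 2 and 3. They took 31.9% in optic lobe replicate 3, against 11 and 10.9% in optic lobe replicates 1 and 2. Their models ran from 117 to 837 bases, and 53 of the 112 members with a length had models of 837 bases or less. Over the 112 members with a length, the correlation of the deviation with log2 length was -0.0724 for non-visual brain replicate 1 and -0.179 for optic lobe replicate 3.

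**Figure D3:**
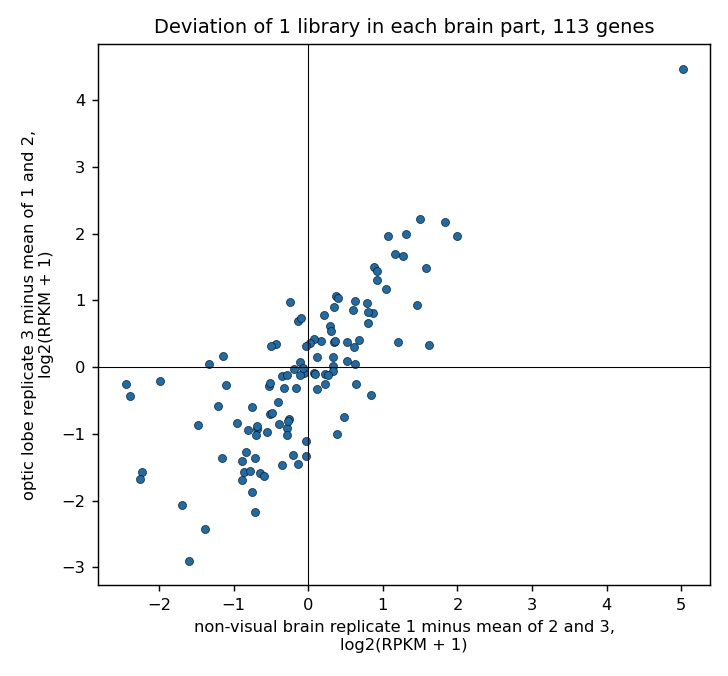
Deviation of non-visual brain replicate 1 from the other 2 non-visual brain libraries (x axis) and of optic lobe replicate 3 from the other 2 optic lobe libraries (y axis), as log2 differences, 1 point per member. The points run along the diagonal, with 41 genes up in both libraries and 52 down in both.

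The members' low tissues were not equally low. Retina had the highest mean of the 3 low tissues in 74 members, fat body in 21 and ovary in 18. As a median share of the brain level, retina libraries stood at 5.93, 2.33 and 2.97%, fat body libraries at 1.35, 1.44 and 2.19%, and ovary libraries at 1.25, 0.575 and 1.16%. Retina replicate 1 was the highest retina library in 72 members. None of the members was at 0 in all 9 libraries of these tissues, while 7 were at 0 in all fat body libraries, 3 in all ovary libraries and 0 in all retina libraries. In bulk tissue, fewer cells that express a gene and less RNA of it per cell cannot be told apart.

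The lower brain mean was 8.05 to 74.4 times the highest of these 3 means, with a median of 17.2, and 60 members reached 16 times. HSALG015802.1 had the largest ratio. It had 36, 37.9 and 13.7 RPKM in non-visual brain and 27.9, 16.8 and 43.9 RPKM in optic lobe, while its antenna libraries held 12.8, 10.1 and 9.98 RPKM. Its highest value in retina, fat body or ovary was 0.923 RPKM, so antenna lay between the brain libraries and the rest. HSALG023903.1 followed at 52.5 times, with antenna libraries at 3.98, 1.99 and 4.95 RPKM and non-visual brain and optic lobe means of 43.5 ± 14.1 and 23.6 ± 6.17 RPKM (SD, n = 3 each). HSALG012073.2 was the member nearest the minimum, at 8.05 times, and HSALG001307.1 fell outside at 7.95 times.

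The antenna, which had no part in the choice, was intermediate and split the set. Most members were lower in antenna than in brain, and most were higher there than in retina, fat body and ovary. A minority had an antenna mean as high as the brain mean, mostly not in every antenna library. The antenna mean had a median of 21.2% of the brain mean over the 113 genes. It was 50% or more in 16 members, 100% or more in 8 and 10% or less in 31. Taken by library, 7 members reached 50% in all 3 antenna libraries, 9 in only 2 and 25 in only 1. HSALG014106.2 was among the 16 with antenna values of 0, 0 and 57.6 RPKM. In 100 members the antenna mean was above each of the retina, fat body and ovary means. The choice of members kept those means low, so this count is partly built in, and its share over all rows was not computed. Held to the same 8-fold margin against antenna, 28 members passed and 85 did not, so for most of the set a name as genes of the brain parts alone does not hold.

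Library by library, the median share of the brain level was 11.3% in antenna replicate 1, 15.1% in antenna replicate 2 and 21.6% in antenna replicate 3. Members listed at 0 numbered 22, 25 and 19 in these libraries, and 70 members were above 0 in all 3. Summed over members, the antenna libraries held 21.5, 22.9 and 21.6% of the brain RPKM. The ranking of members differed between antenna libraries, and the correlation of log2(RPKM + 1) across the 113 genes was 0.583 between replicates 1 and 2, 0.39 between replicates 1 and 3 and 0.541 between replicates 2 and 3. The part of counting error in that spread, with 23 to 45.5 reads for the median member, was not tested.

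**Figure D4:**
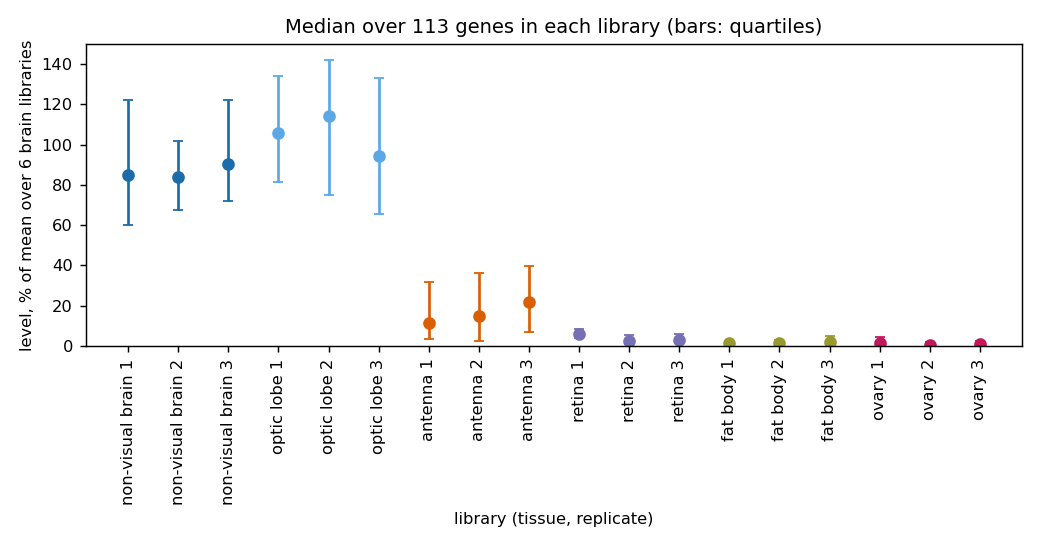
Level of the 113 genes in each of the 18 libraries as a percentage of the gene's mean over the 6 brain libraries (y axis), with the libraries along the x axis. Points are medians over the genes and bars run from the lower to the upper quartile. The medians lie between 83.7 and 114% in brain, between 11.3 and 21.6% in antenna, and at 5.93% or less in retina, fat body and ovary.

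Between brain (the mean of both parts) and antenna, limma with Benjamini-Hochberg adjustment over 12996 rows called 94 of 113 members higher in brain, at an adjusted p under 0.05 and a difference of at least 2-fold. That was 83.2% of the members, against 38.3% of all rows tested. No member was called lower in brain (0 of 113), against 3.89% of all rows. At an unadjusted p under 0.05 the count was 0 with limma and 0 with voom on recovered reads, 2 with a pseudocount of 5 and 2 with trimmed-mean factors. It was 1 with no filter on low values, 1 without optic lobe replicate 2 and 1 without antenna replicate 3, and 0 in the other alternatives. The brain side was set by the choice of genes, so a tilt towards brain is partly built in, and the level in antenna is what the comparison adds. The median log2 difference of brain minus antenna was 2.59 over the members and 1.07 over all rows, with 105 members positive and 8 negative. All 6 brain libraries were above all 3 antenna libraries in 74 members (65.5%), against 20% of all rows, and all 3 antenna libraries were above all 6 brain libraries in 0 members, against 2.65% of all rows.

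The choice of members kept brain levels high, and HSALG023357.1 and HSALG004884.2 were named for the largest differences among them. The p-values given here are therefore a description. HSALG023357.1 had the largest difference. It had 76.9, 17.4 and 55.4 RPKM in non-visual brain and 40, 27.1 and 107 RPKM in optic lobe, and no read in any antenna library. Brain and antenna did not overlap, and set against 3 reads over the 3 antenna libraries together, the brain mean was at least 21.3-fold higher. For the difference of log2(RPKM + 1), and not for this bound, limma gave an adjusted p of 2.2e-05. HSALG004884.2 had 66.2, 45.9 and 54 RPKM in non-visual brain and 72.2, 48.8 and 123 RPKM in optic lobe, against 2.18, 1.34 and 0 RPKM in antenna. The groups did not overlap, and the log2 difference was 5.07 with a standard error of 0.50 (adjusted p = 1.77e-06, limma). The most abundant member, HSALG004673.2, kept 9.65% of its brain level in antenna, with a log2 difference of 3.52 and a standard error of 0.61 (adjusted p = 0.00031, limma).

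In 6 members every antenna library was at 0. Their brain means were at least 21.3-fold to 171-fold higher than the level that 3 reads over the antenna libraries allow. These bounds cover counting error only. HSALG004702.1, with its uneven brain libraries, was among them.

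The other end of the comparison held genes with antenna means above their brain means. HSALG029331.1 had 176, 148 and 143 RPKM in non-visual brain and 44.5, 124 and 68.6 RPKM in optic lobe, against 306, 329.7 and 81.2 RPKM in antenna. Antenna replicates 1 and 2 were above every brain library, and antenna replicate 3 was not. The log2 difference of brain minus antenna was -0.92 with a standard error of 0.46 (adjusted p = 0.109, limma). Without antenna replicate 3 it was -1.57 (adjusted p = 0.00546, limma), and the gene was then called lower in brain. HSALG028550.1 had 52.1, 57.8 and 35 RPKM in non-visual brain and 38, 68.6 and 88.8 RPKM in optic lobe, against 181, 68.7 and 87.1 RPKM in antenna. Here the groups overlapped, with a log2 difference of -0.92 and a standard error of 0.53 (adjusted p = 0.161, limma).

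HSALG009649.2 and HSALG027881.1 came next by antenna share, with antenna means at 163 and 153% of their brain means. HSALG009649.2 had 28.3, 35.5 and 39.9 RPKM in non-visual brain and 81.3, 76.3 and 54.6 RPKM in optic lobe, against 147, 95 and 14.6 RPKM in antenna. HSALG027881.1 had 71, 85.8 and 64.9 RPKM in non-visual brain and 60.7, 159 and 97.5 RPKM in optic lobe, against 206, 143 and 62.5 RPKM in antenna. In both genes antenna replicate 1 was the highest of the 9 brain and antenna libraries and antenna replicate 3 the lowest antenna library.

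That order held for the 16 members at 50% or more as a group. Their median share of the brain level was 147% in antenna replicate 1, 112% in antenna replicate 2 and 62% in antenna replicate 3. The 66 members between 10 and 50% went the other way, with medians of 13.4, 18.5 and 27.6%. The 31 members at 10% or less had medians of 4.03, 2.69 and 4.05%. Antenna replicate 3 was the library with the high level of retina-restricted rows, and the part of other tissue in these shares was not tested. The classes were set from antenna levels, so they are ranges and not types.

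**Figure D5:**
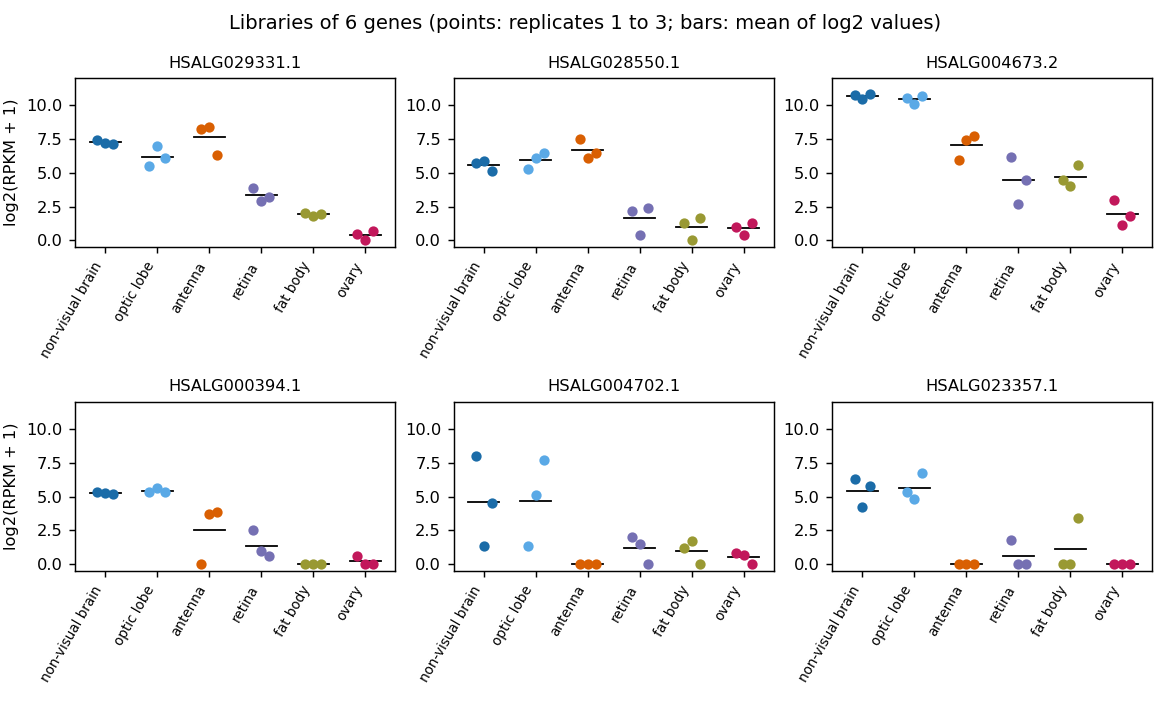
Level of 6 named members in the 6 tissues, as log2(RPKM + 1). Points are the 3 libraries of a tissue and bars the mean of their log2 values. HSALG029331.1 and HSALG028550.1 have antenna libraries as high as brain, HSALG004673.2 and HSALG000394.1 lie lower in antenna, and HSALG004702.1 and HSALG023357.1 have no antenna library above 0.

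Between antenna and the mean of retina, fat body and ovary, 67 of 113 members (59.3%) were called higher in antenna by limma, against 6.69% of all rows tested, and 1 was called lower, against 13.8% of all rows. The low level of the 3 tissues was set by the choice of genes. The median log2 difference of antenna minus these tissues was 1.98 over the members and -0.37 over all rows, with 103 members positive and 10 negative. All 3 antenna libraries were above all 9 libraries of retina, fat body and ovary in 44 members (38.9%), against 2.82% of all rows. With library weights estimated by limma, 31 members were called higher in antenna. Calls over all 12996 rows were then 304, against 869 in the main fit.

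HSALG029331.1 and HSALG028550.1 had the largest differences here as well. They were named for these differences, and the choice of members kept retina, fat body and ovary low, so their p-values are a description. HSALG029331.1, with antenna values of 306, 329.7 and 81.2 RPKM, held 13.4, 6.71 and 8.3 RPKM in retina, 3.11, 2.53 and 2.78 RPKM in fat body, and 0.401, 0 and 0.622 RPKM in ovary. The lowest antenna library was above the highest of the others, and the log2 difference was 5.78 with a standard error of 0.44 (adjusted p = 7.27e-08, limma). HSALG028550.1, with antenna values of 181, 68.7 and 87.1 RPKM, was at 4.13 RPKM or less in each retina, fat body and ovary library. Its log2 difference was 5.52 with a standard error of 0.50 (adjusted p = 6.53e-07, limma), again without overlap.

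HSALG002314.2 was the member called lower in antenna. It had no read in any antenna library, against 2.22, 1.99 and 2.25 RPKM in retina, 2.98, 1.74 and 0 RPKM in fat body, and 1.51, 0.781 and 2.98 RPKM in ovary. Against 3 reads over the antenna libraries, antenna was at least 3.95-fold lower, and fat body replicate 3 was at 0 as well. For the difference of log2(RPKM + 1), and not for this bound, limma gave an adjusted p of 0.0452. The adjusted p ranged from 0.00414 to 0.319 over 30 alternatives, and the call was lost in 19 of them. HSALG013197.2 had antenna values of 0, 0 and 25 RPKM, against 1.3 to 11.7 RPKM in the 9 libraries of retina, fat body and ovary. Its log2 difference was -1.15 (adjusted p = 0.285, limma), and without antenna replicate 3 it was -2.72 (adjusted p = 0.000777, limma).

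Taking both comparisons, 49 members (43.4%) were called higher in brain than antenna and in antenna than the 3 low tissues. That combination held in 1.17% of all rows. Another 45 members (39.8%) were called higher in the first comparison alone, close to the 37.1% of all rows. The second alone held 18 members (15.9%), against 5.52% of all rows, and 1 member (0.885%) was in neither, against 56.2%. The comparisons share the antenna libraries, and the choice of members set the brain and low tissue sides of both. The 19 members not called higher in brain had antenna means at 40.6 to 204% of their brain means.

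The antenna classes differed in other features only by description. The median coding length was 552 bases in the members at 50% or more, 1314 bases in those between 10 and 50%, and 753 bases in those at 10% or less. Their median brain means were 58.8, 47.9 and 59.1 RPKM in the same order. Non-visual brain was the lower brain part in 12 of 16, 43 of 66 and 14 of 31 members of these classes. Retina stood at a median of 5.46, 4.44 and 3.34% of brain.

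Neighbouring sets, chosen on the same tissues by like rules, had other antenna levels. The antenna mean as a share of the mean in the brain parts that chose the set had a median of 21.2% in the 113 members, 0.584% in 25 genes of non-visual brain alone, 13.8% in 13 genes of optic lobe alone, and 38.3% in 44 genes of both brain parts and retina. In the other 2016 HSALG genes at 20 RPKM or more in both brain parts it was 56.2%. Antenna was at 10% or less in 27.4% of the members, in 92% of the genes of non-visual brain alone, in 38.5% of those of optic lobe alone, in 2.27% of those of both brain parts and retina, and in 2.28% of the other 2016 genes. These differences are given as a description with no test. For the genes of non-visual brain alone the median share was 0% in each antenna library. The shallow antenna depth limits how low a share can be resolved. In addition, 6 XLOC loci, which carry no HSALG identifier, met the same thresholds and had a median antenna share of 26.8%.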

How the data were processed

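Values were the RPKM deposited by the authors, 20755 rows by 18 libraries. Per the labels, RNA was fragmented and reverse-transcribed with random hexamers into unstranded libraries. Per the submitters' processing notes, STAR 2.5.0b and DESeq2 were used; no source used here gives the genome build or annotation. Whole reads, coding lengths (98.1% multiples of 3) and totals were recovered from the RPKM steps in 15767 of 18589 rows above 0 (84.8%, relative tolerance 1.2e-05) and tested on simulated data. Intervals and floors cover counting error only. Of the low recovered read counts, 48.4 to 67.9% were even, depending on the library. Whether reads were counted in pairs was not tested, and bounds from 3 reads would then be too tight.

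The members and lists were chosen with earlier results of these data known. Tests used limma 3.58.1 in R 4.3.3 on log2(RPKM + 1) with a mean-variance trend, all 18 libraries in 1 fit, rows at 1 RPKM or more in 3 or more libraries (all 113 members passed), two-sided, with Benjamini-Hochberg adjustment over 12996 rows. Differences on this scale understate the change of low genes. On simulated data for brain against antenna (12109 rows), 78% of 4-fold and 99% of 8-fold changes were recovered, with 0.806% false calls. The simulation gave all tissues the same mean in unchanged rows and used a fixed spread between libraries. In the real data the antenna SD had a median of 81.1% of the mean over members, so these rates need not carry over. Named genes are the 2 members at each end by brain level, by the ratio of the brain parts, by brain variation and by each limma difference, the 2 with the largest ratio to the low tissues, the longest and the shortest, the member and row nearest each threshold, and the 4 highest by antenna share. Genes named by a limma difference were picked on the same difference that is printed for them, so their p-values are a description. The main fit did not pair libraries by replicate number, and whether same-numbered libraries share animals is not known here. Alternatives covered pseudocount, filter, scaling, library weights, voom, a replicate block and left-out libraries.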

Additional observations from a re-analysis of the deposited data

How the results depend on the processing

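The 94 members called higher in brain than in antenna stayed within 1.5 times under 30 alternatives, at 78 to 94 with a library left out and at 65 to 96 otherwise, the lowest with voom. Over all rows tested these calls were 4976 in the main fit, 3797 to 6036 with a library left out and 3278 with voom. Calls lower in brain were 0 to 1 with a library left out, the 1 coming without antenna replicate 3. The 67 calls higher in antenna than in retina, fat body and ovary became 63 to 73 with a library left out and 31 with library weights. Over all rows tested they were 869 in the main fit, 751 to 960 with a library left out and 304 with library weights. The 1 call lower in antenna was 0 with pseudocount 5, no filter on low values, libraries rescaled to the same sum, library weights, voom or the replicate block, and 0 to 1 with a library left out. The cause was not tested. With the replicate block, 91 members were called higher in brain and 66 higher in antenna, against 4730 and 801 of 12996 rows. Same-numbered libraries of different tissues deviated with correlations of -0.35 to 0.333 over 45 pairs. Their mean correlation was -0.000935, against 0.00124 for pairs with unlike numbers. Of 18 libraries, 8 matched best with their own number among the 3 numbers. These values cannot show whether same-numbered libraries came from the same animals. The rule gave 59 genes with trimmed-mean factors (58 shared with the 113), 52 after quantile normalization (49 shared), 184 with libraries rescaled to the same sum (107 shared), 209 at a ratio of 4, 60 at a ratio of 16, and 99 to 128 with a library left out. The antenna level, as a mean over libraries of 16% of brain for the median member, was 13.2 to 18.4% with a library left out and 22% summed over members. Scaling moved the median of all rows in brain minus antenna (1.07) to 0.82 with trimmed-mean factors and 0.41 after quantile normalization, and in antenna minus the low tissues (-0.37) to -0.12 with libraries rescaled. Leaving out non-visual brain replicate 1 and optic lobe replicate 3 together, chosen after seeing the data, gave 90 and 65 calls, against 5180 and 888 of 12805 rows. The rule then gave 129 genes (99 shared). Antenna depth limits the members listed at 0.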

Other observations

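Among the 113 members, 10 carried identifiers whose numbers follow each other, in 5 pairs. Whether such numbers mark neighbours in the genome is not known here. Over the members, log2(RPKM + 1) in a single library was correlated with the mean of the 6 brain libraries. The correlations were 0.854, 0.635 and 0.735 for retina replicates 1, 2 and 3 and 0.752, 0.569 and 0.673 for those of fat body. In the same order they were 0.474, 0.416 and 0.565 for ovary and 0.422, 0.523 and 0.565 for antenna. The rule tied the ceiling of retina, fat body and ovary to the brain level and left antenna free. The correlations of those 3 tissues are therefore partly built in and cannot be set against those of antenna. The 113 genes are not independent replicates.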
